A study of Homo sapiens with 46 samples.

Results

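The fibroblast growth factor (FGF) genes described here are 10: the ligand family genes FGF2, FGF8 and FGF13, the receptor genes FGFR1, FGFR2, FGFR3 and FGFR4, and the Sprouty feedback genes SPRY1, SPRY2 and SPRY4. They were chosen by name and matched on the gene name in 4 tables of read counts, one each for human pluripotent stem cells (hPSC), ectoderm, endoderm and mesoderm, and they are 10 of the 21183 Ensembl genes listed in any of these tables. Each table was built on its own transcript assembly, and a gene not listed in a table has no value there. The 4 tables listed 7 members in common, while FGF2 was not listed in endoderm or mesoderm, FGF8 not in hPSC or mesoderm, and FGFR3 not in hPSC.

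The study sequenced RNA from cytoplasm, whole nucleus, nucleoplasm and chromatin of H1, an established human embryonic stem cell line, and of cells differentiated from it toward the 3 germ layers. There were 46 libraries in 16 groups of 3, apart from the 1 library of mesoderm nucleoplasm. That library was part of the filter and fits for nucleoplasm and for mesoderm, but no comparison used its group. The hPSC were grown on Matrigel in mTeSR1, a stem cell medium that contains FGF2 protein. Ectoderm cultures received knockout serum replacement and the inhibitors A83-01, Dorsomorphin and PNU-74654 at 2 µM each, with no FGF named. Endoderm cultures received serum, WNT3A, and Activin A at 100 ng/ml. Mesoderm cultures received serum, VEGF at 100 ng/ml, BMP4 at 100 ng/ml and bFGF, which is FGF2 protein, at 10 ng/ml, with Activin A at 100 ng/ml on the first day alone. All 3 kinds of differentiated culture were collected after 5 days. Every group came from 1 cell line, and nothing in the labels says that replicates were separate cultures, so p-values measure the spread between libraries, which may be technical.

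FGFs are signals that bind receptor tyrosine kinases at the cell surface together with heparan sulfate, and the receptors then activate the RAS-ERK kinase chain. Sprouty proteins are induced by this signal and dampen it, so their transcripts are often read as a trace of ERK activity. In human pluripotent cells FGF2 helps to keep the undifferentiated state, and FGF signals pattern all 3 germ layers in the embryo.

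Total counts ranged from 4990408 to 21298678 per library. Levels are given as CPM, a gene's count scaled to a common library total. Log2 changes, their standard errors (SE) and adjusted p-values came from edgeR's quasi-likelihood test with Benjamini-Hochberg adjustment over all genes tested, and a gene was called at an adjusted p under 0.05. This test rescales libraries by TMM factors, so a log2 change can differ from the ratio of the mean CPM. Of 119 called member results, 3 had mean CPM that differed in the other direction, and each is named where it is given.

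Marker genes were read against the labels, and not all matched. Ectoderm cytoplasm held PAX6 at a mean of 203 CPM, and endoderm cytoplasm held SOX17 at 158 CPM. Each is 1 of 8 markers chosen for that cell type. The others, and the hPSC markers, are not given here. In the libraries labelled mesoderm, only 4 of 8 mesoderm markers were listed, with a summed level of 134 to 141 CPM in cytoplasm that was mostly HAND1 (132 CPM), while TBXT stood at 0.132 CPM. All 7 trophoblast or amnion markers were listed in those libraries, at a summed 386 to 421 CPM against 174 to 217 in endoderm (4 listed), 8.54 to 10.4 in ectoderm (3 listed) and 24.1 to 31.2 in hPSC (1 listed), and TFAP2A (168 CPM) and GATA3 (123 CPM) were among them. The part of this cell type mix in the results for the libraries labelled mesoderm was not tested. The nucleus libraries rest on a reading of the table headers: their columns are coded Nei, which was taken as nucleus because it is the only labelled fraction with no other column code. Fraction controls also went against labels in places. Cytoplasm held more of the nuclear RNA MALAT1 than nucleus did in hPSC (232 against 81.6 CPM) and ectoderm (1661 against 168 CPM). The mitochondrial transcript MT-CO1 was lower in cytoplasm than in nucleus in hPSC (1514 against 40278 CPM), ectoderm (4725 against 35507 CPM) and endoderm (1098 against 36328 CPM), and higher in cytoplasm in mesoderm (19424 against 3840 CPM).

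**Figure D1:**
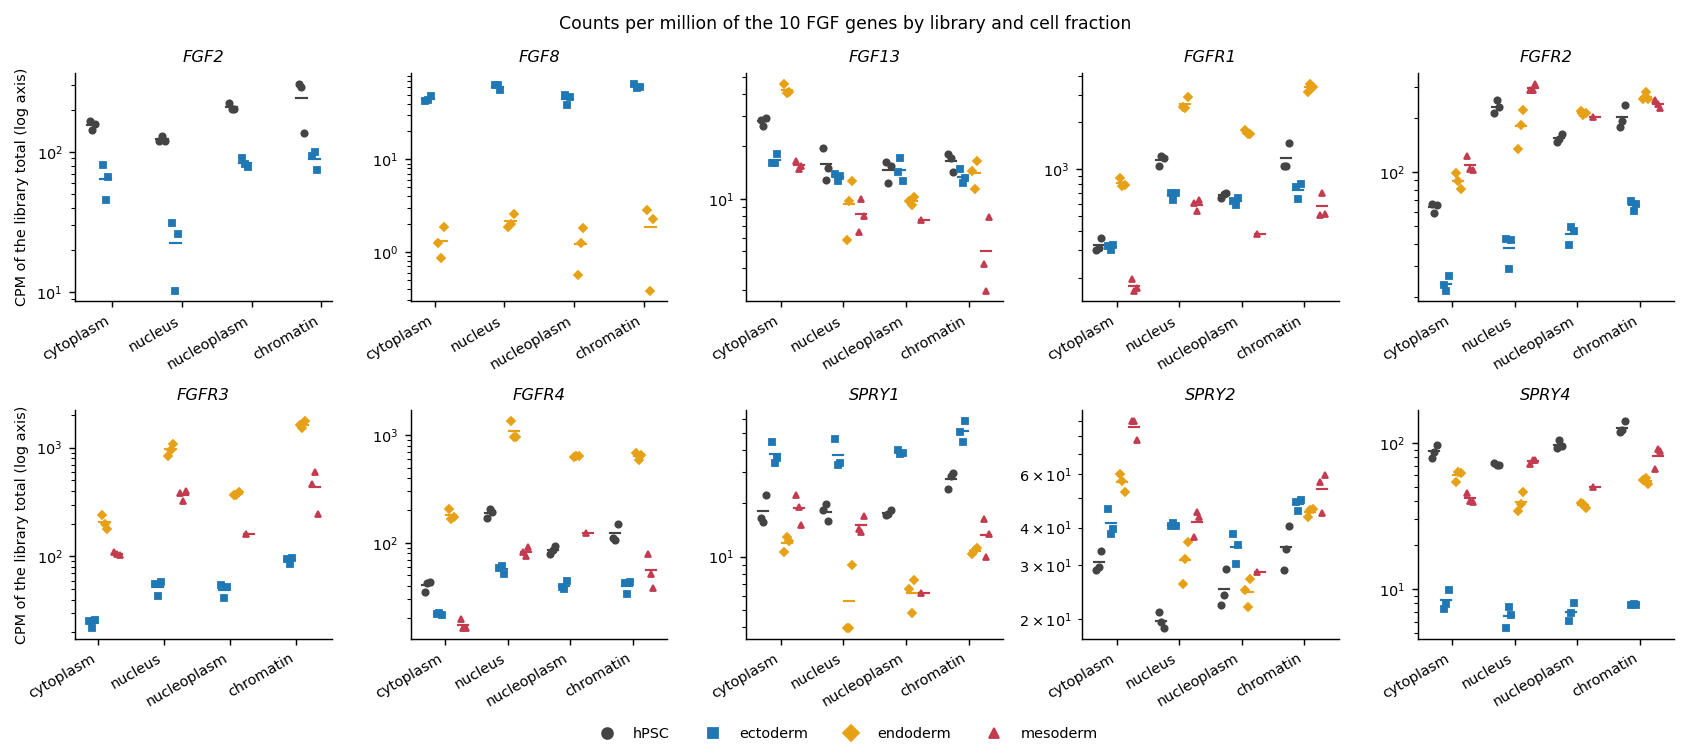
CPM, relative to the library total (log axis, a different range in each panel) for each of the 10 genes, by fraction (x axis) and cell type (colour and shape). Each point is 1 library and each short line a group mean. FGFR1, FGFR3 and FGFR4 are highest in endoderm in every fraction, and SPRY4 lowest in ectoderm.

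Among the ligand family genes, FGF2 encodes a secreted growth factor that leaves the cell without a classical signal peptide. Its gene lies at chr4:122826708-122898236 on the plus strand (GRCh38, GENCODE release 29). In hPSC cytoplasm FGF2 stood at 167, 143 and 157 CPM, and in ectoderm cytoplasm at 80.7, 45.4 and 66.7 CPM. The groups did not overlap, and FGF2 was 2.65-fold lower in ectoderm (log2 -1.40, SE 0.16, edgeR adjusted p = 2.79e-05). FGF2 was not in all 4 tables, so this fit used the genes of the hPSC and ectoderm tables, of which 73.2% were called. The change was -2.42 (SE 0.28, edgeR adjusted p = 6.9e-05) in nucleus, -1.43 (SE 0.08, adjusted p = 4.1e-11) in nucleoplasm and -1.42 (SE 0.31, adjusted p = 0.00482) in chromatin. The shares of all genes called there were 63.9%, 79.3% and 69.7%. FGF2 was thus lower in ectoderm in all 4 fractions. One hPSC chromatin library stood apart for FGF2 at 136 CPM beside 306 and 288 CPM, and it was still above the ectoderm chromatin range of 74.7 to 99.6 CPM. A single isoform, ENST00000264498, held between 97.4% and 99.8% of the FGF2 count in each group. FGF2 overlaps NUDT6 on the opposite strand. NUDT6 was listed in ectoderm at group means of 1.87 to 3.48 CPM and was not listed in hPSC, and since strand use in counting is not given in the sources used here, reads of the overlapping part cannot be told apart.

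FGF8 encodes a secreted factor known from the edges of the early brain and from gastrulation, and it lies at chr10:101770130-101780369 on the minus strand. Its transcripts differ in 1 short stretch near the start of the coding sequence, which sets the length of the protein's amino end. The stretches below show how the 4 annotated forms join there, printed on the coding strand from GRCh38, with 15 shared bases on each side in lower case and the optional bases in capitals.
FGF8 form a: tgcctccaagcccagcatgtgagggagcag
FGF8 form b: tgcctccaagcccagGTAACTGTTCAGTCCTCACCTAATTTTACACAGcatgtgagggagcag
FGF8 form e: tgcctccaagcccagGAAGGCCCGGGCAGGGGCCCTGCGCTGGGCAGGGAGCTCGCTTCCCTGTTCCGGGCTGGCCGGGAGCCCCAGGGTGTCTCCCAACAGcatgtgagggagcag
FGF8 form f: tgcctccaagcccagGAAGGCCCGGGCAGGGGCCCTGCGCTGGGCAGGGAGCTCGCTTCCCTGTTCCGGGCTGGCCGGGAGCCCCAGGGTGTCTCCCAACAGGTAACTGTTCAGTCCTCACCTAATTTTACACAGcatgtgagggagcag
Form a holds none of the optional bases. Form b adds 33 bases (chr10:101774880-101774912), form e a separate exon of 87 bases (chr10:101775130-101775216), and form f both.

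FGF8 had values in ectoderm and endoderm alone. Ectoderm cytoplasm held 42.7, 43.3 and 48.4 CPM, and endoderm cytoplasm 1.25, 0.851 and 1.88 CPM, from 14 to 30 counts. FGF8 was 36.5-fold higher in ectoderm than in endoderm (log2 5.19, SE 0.21, edgeR adjusted p = 1.38e-09), in a comparison added after the data were seen, in which 74.0% of genes were called. The endoderm count came from 1 transcript with no Ensembl ID, and in ectoderm 4 of 5 transcripts had an ID. The comparison could therefore not be repeated with transcripts that have an Ensembl ID alone. The level was 60.9 CPM ± 4.28 (SD, n = 3) in ectoderm nucleus, 45.2 ± 6.06 in nucleoplasm and 61.6 ± 3.68 in chromatin, and endoderm group means stayed between 1.21 and 2.14 CPM.

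All 4 forms of FGF8 were counted in ectoderm, and form a had the highest mean share in cytoplasm. Of the counts assigned to the 4 forms, form a took 42.8% ± 9.13 (SD, n = 3) in cytoplasm, form b 29.2% ± 4.55, form e 18.0% ± 3.92 and form f 9.96% ± 1.46. In chromatin form b led with 38.1% ± 3.73, and form a took 27.5% ± 5.60. The cytoplasm and chromatin libraries did not overlap for form a (32.5% to 49.8% against 21.2% to 31.8%) or form b (25.9% to 34.4% against 35.6% to 42.4%), and they did overlap for forms e and f. For form a, nucleus (31.4% to 43.9%) and nucleoplasm (28.8% to 35.3%) libraries overlapped both. For form b, nucleoplasm libraries (25.9% to 44.9%) overlapped both, and nucleus libraries (27.3% to 30.8%) overlapped cytoplasm alone. These shares are a description, because 3 libraries against 3 cannot give an exact p below 0.1. The 4 forms held 93.3% to 95.6% of the FGF8 count in cytoplasm and 75.6% to 81.8% in chromatin. A transcript with no Ensembl transcript ID held 5.7% of the gene's count in cytoplasm and 21.3% in chromatin.

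**Figure D2:**
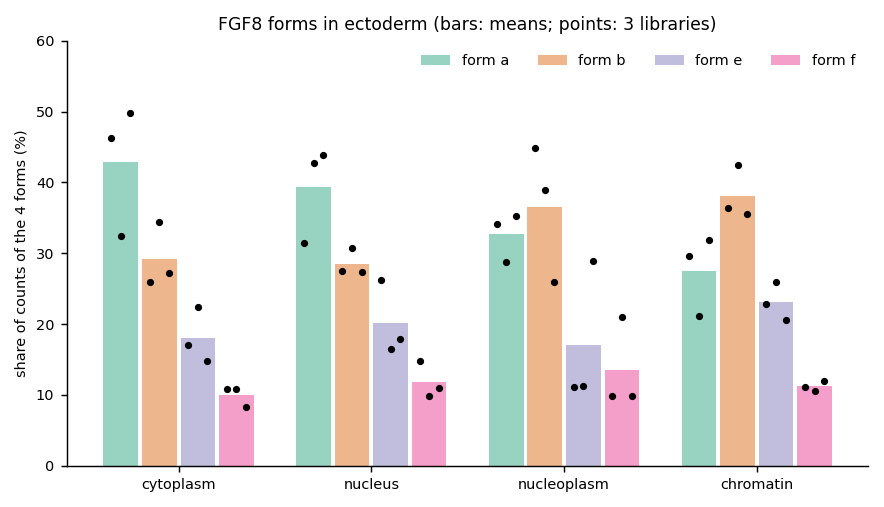
Share of the counts of the 4 FGF8 forms (y axis, percent) in the 4 ectoderm fractions (x axis). Bars are group means and points the 3 libraries. Form a is the tallest bar in cytoplasm (42.8%) and form b in chromatin (38.1%).

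FGF13 is an intracellular member of the family that acts on sodium channels and microtubules and not as a receptor ligand. It lies at chrX:138614731-139222777 on the minus strand. Cytoplasm held 28.3, 26.3 and 29.1 CPM in hPSC and 16.1, 16.1 and 18.1 CPM in ectoderm. Endoderm cytoplasm held 45.9, 40.3 and 41.1 CPM, and mesoderm 16.5, 14.9 and 15.5 CPM. Endoderm was above hPSC, and ectoderm and mesoderm were below it and overlapped each other. Against hPSC the log2 change was 0.39 (SE 0.10, edgeR adjusted p = 0.00431) in endoderm, -0.79 (SE 0.10, adjusted p = 6.01e-06) in ectoderm and -0.88 (SE 0.10, adjusted p = 3.3e-06) in mesoderm. The endoderm rise was bound to the assembly: counted from transcripts with an Ensembl ID alone, the change became -0.67 (edgeR adjusted p = 0.00043). In endoderm cytoplasm ENST00000315930 took 47.0% of the FGF13 count and a transcript without an ID 51.6%, whereas ENST00000315930 took 98.1% to 99.8% in cytoplasm of the other 3 cell types. Outside the cytoplasm FGF13 was not called in ectoderm or endoderm, and in mesoderm it was lower in nucleus (-1.12, SE 0.23, adjusted p = 0.0011) and chromatin (-1.57, SE 0.29, adjusted p = 0.000458). On TPM values the 3 mesoderm changes of FGF13 were not called, at -0.17 (limma adjusted p = 0.524) in cytoplasm, 0.10 (adjusted p = 0.778) in nucleus and -0.38 (adjusted p = 0.43) in chromatin.

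The receptor genes encode kinases that span the membrane, with extracellular immunoglobulin-like domains that bind the ligand. FGFR1, the main receptor of pluripotent cells, had the highest level per transcript length among the members in cytoplasm of hPSC, ectoderm and endoderm, with mean TPM (transcripts scaled by length and depth) of 73.8, 82.8 and 242. In mesoderm cytoplasm FGFR1 stood at 45.2 TPM, next to SPRY2 at 46.5 TPM. FGFR1 CPM in cytoplasm was 300, 311 and 362 in hPSC and 319, 302 and 324 in ectoderm, and these groups overlapped. In endoderm it was 872, 781 and 796 CPM, and in mesoderm 197, 164 and 171 CPM, on either side of the other cell types.

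Endoderm FGFR1 was 2.16-fold above hPSC in cytoplasm (log2 1.11, SE 0.10, edgeR adjusted p = 2e-07), and the gain was 1.60 to 1.81 on the log2 scale in the other 3 fractions. Mesoderm FGFR1 was lower in cytoplasm by -0.92 (SE 0.10, edgeR adjusted p = 9.86e-07), in nucleus by -1.12 (SE 0.19) and in chromatin by -0.88 (SE 0.22). On TPM values the mesoderm nucleus change was -0.26 (limma adjusted p = 0.164). Ectoderm FGFR1 was not called in cytoplasm (-0.10, SE 0.10, adjusted p = 0.361) and was lower in nucleus (-0.69, SE 0.19, adjusted p = 0.00562), where transcripts with an Ensembl ID alone gave -0.59 (adjusted p = 0.0505). Its smaller changes in chromatin (-0.62, adjusted p = 0.0215) and nucleoplasm (-0.19, adjusted p = 0.027) each lost the call when any of 3 single libraries was left out, with adjusted p up to 0.0989 and 0.125. In chromatin, leaving out hPSC replicate 3, whose FGFR1 level was 1469 CPM beside 1045 and 1052, gave the -0.46 change with the adjusted p of 0.0989.

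FGFR4 had the widest range of the receptors listed in all 4 tables. It lies at chr5:177086886-177098144 on the plus strand. Cytoplasm CPM was 34.9, 42.4 and 43.3 in hPSC and 206, 166 and 172 in endoderm. In ectoderm it was 21.7, 22.3 and 21.6, and in mesoderm 19.6, 16.2 and 16.4. No 2 cell types overlapped, in the order endoderm, hPSC, ectoderm and mesoderm. Endoderm was 3.86-fold above hPSC in cytoplasm (log2 1.95, SE 0.12, edgeR adjusted p = 3.02e-09), and the log2 gain was 2.98 (SE 0.26) in nucleus, 3.37 (SE 0.08) in nucleoplasm and 2.63 (SE 0.23) in chromatin. Ectoderm was lower than hPSC in all 4 fractions, by -0.93 (SE 0.12) in cytoplasm to -1.64 (SE 0.25) in nucleus. Mesoderm was lower by -1.26 (SE 0.12) in cytoplasm, -1.34 (SE 0.25) in nucleus and -0.99 (SE 0.23) in chromatin. The ectoderm and mesoderm changes were called in each of these tests, with edgeR adjusted p between 1.74e-11 and 0.00237. Counted from transcripts with an Ensembl ID alone, the mesoderm chromatin change was -0.43 (adjusted p = 0.233).

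FGFR3 (chr4:1793293-1808872, plus strand) was listed in the 3 differentiated tables. Its cytoplasm CPM was 25.3, 21.9 and 26.1 in ectoderm, 243, 198 and 179 in endoderm, and 110, 104 and 104 in mesoderm. The 3 groups were apart in every fraction, in the order endoderm, mesoderm, ectoderm. In cytoplasm ectoderm was 7.82-fold below endoderm (log2 -2.97, SE 0.12, edgeR adjusted p = 1.59e-09) and 4.34-fold below mesoderm (-2.12, SE 0.09, adjusted p = 4.35e-10), and endoderm was 1.74-fold above mesoderm (0.80, SE 0.10, adjusted p = 1.87e-05). These pairs were added after the data were seen, and the genes called in the comparisons with mesoderm made up 68.2% for ectoderm and 59.2% for endoderm. The endoderm count came from 5 transcripts with no Ensembl ID, and the ectoderm count from 1 transcript with an ID. The comparisons with endoderm could therefore not be repeated with transcripts that have an Ensembl ID alone. The highest FGFR3 group was endoderm chromatin at 1633 CPM ± 119.9 (SD, n = 3), against 92.1 ± 5.84 in ectoderm chromatin and 437 ± 180 in mesoderm chromatin, where the 3 libraries ranged from 245 to 602 CPM.

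FGFR2 (chr10:121478334-121598458, minus strand) was lowest in ectoderm. Cytoplasm CPM was 66.4, 59.2 and 65.7 in hPSC, 23.5, 21.8 and 26.4 in ectoderm, 98.9, 89.5 and 80.3 in endoderm, and 123, 104 and 103 in mesoderm. None of these groups overlapped. Ectoderm was lower than hPSC by -1.47 (SE 0.10, edgeR adjusted p = 6.6e-09) in cytoplasm, -2.58 (SE 0.16) in nucleus, -1.84 (SE 0.08) in nucleoplasm and -1.57 (SE 0.14) in chromatin. Counted from transcripts with an Ensembl ID alone, the chromatin change was -0.33 (edgeR adjusted p = 0.151). Mesoderm was 1.67-fold above hPSC in cytoplasm (0.74, SE 0.10, edgeR adjusted p = 1.07e-05), and it was not called in nucleus (0.19, SE 0.15, adjusted p = 0.286). Endoderm was above hPSC in nucleoplasm (0.96, SE 0.07, adjusted p = 3.62e-11) and chromatin (0.63, SE 0.14, adjusted p = 0.00157) and not called in nucleus (0.01, SE 0.15, adjusted p = 0.977). The calls in endoderm cytoplasm (0.27, adjusted p = 0.0282) and mesoderm chromatin (0.40, adjusted p = 0.0282) each ended when single libraries were left out, with edgeR adjusted p up to 0.102 and 0.18.

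FGFR2 transcripts also differ in sequence. The second part of the third immunoglobulin-like domain is encoded by 1 of 2 exons that are used in turn: the IIIb exon, typical of epithelial cells, and the IIIc exon, typical of mesenchymal cells. This choice sets which FGFs the receptor binds, FGF2 and FGF8 being ligands of the IIIc form. The IIIb exon, whose share is described next, is shown from GRCh38 on the coding strand, all in lower case.
FGFR2 IIIb exon: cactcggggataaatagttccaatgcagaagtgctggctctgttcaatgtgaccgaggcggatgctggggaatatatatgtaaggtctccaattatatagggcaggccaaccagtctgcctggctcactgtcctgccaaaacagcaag
The IIIb exon (chr10:121518682-121518829) has 148 bases.

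Among hPSC, ectoderm and mesoderm, the libraries labelled mesoderm had the highest mean share of the IIIb form. Of FGFR2 counts assigned to a transcript with a known exon, IIIb took 63.4% ± 5.00 (SD, n = 3) in mesoderm cytoplasm, 15.2% ± 5.02 in ectoderm and 8.66% ± 11.3 in hPSC. The mesoderm libraries ranged from 59.5% to 69.0%, the ectoderm libraries from 9.46% to 18.9% and the hPSC libraries from 0% to 21.4%, and mesoderm overlapped neither. The hPSC library at 0% had 0 of 429 classified counts, which allows a share of up to 0.699% by counting error alone. How reads were shared between isoforms makes their counts less certain than gene sums. The 0.699% leaves this out and does not bound the true share. In nucleus, mesoderm libraries at 48.0% to 63.4% overlapped ectoderm libraries at 15.8% to 49.2%, and in chromatin they did not (55.6% to 63.6% against 5.60% to 25.8%). The single mesoderm nucleoplasm library was at 55.0% (95% Wilson interval 53.2% to 56.8%, counting error only). This interval leaves out the sharing of reads between isoforms too. For the 5 pairs of groups that did not overlap the exact two-sided permutation p was 0.1, the smallest that 3 against 3 allows (Benjamini-Hochberg adjusted 0.12 over 6 tests), so these differences could not pass the threshold. These cell types were counted on separate assemblies, and the part of this in the IIIb differences was not tested. In endoderm no transcript known to hold the IIIb exon was listed, and the IIIb share was left out. The endoderm transcript ENST00000683211 is not in GENCODE release 29, so its exon was not determined. It held 41.7%, 30.7% and 29.3% of the FGFR2 count in endoderm cytoplasm, so use of the IIIb exon in endoderm is not known. Transcripts with a known exon held 36.5% to 94.5% of the FGFR2 count, and the lowest share was in an hPSC chromatin library. The trophoblast or amnion markers, summed at 386 to 421 CPM in these mesoderm cytoplasm libraries, stand beside this share, and their part in it was not tested.

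**Figure D3:**
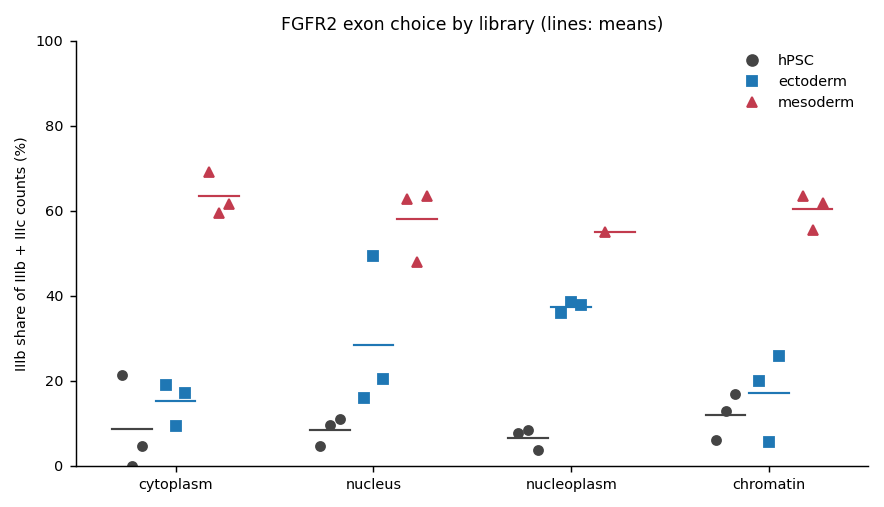
Share of FGFR2 counts in transcripts with the IIIb exon among those with the IIIb or IIIc exon (y axis, percent), by fraction (x axis) and cell type. Each point is 1 library and each line a group mean. Mesoderm libraries lie between 48.0% and 69.0% in every fraction, above all hPSC libraries.

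Among hPSC isoforms of FGFR2, ENST00000613048, an IIIc transcript that lacks the exon of the first immunoglobulin-like domain (267 bases, chr10:121565438-121565704), took 20.6% to 27.4% of the gene's count in the group means of the 4 fractions. Its cytoplasm libraries stood at 47.7%, 19.9% and 14.5%, far apart. The full-length IIIc transcript ENST00000358487 had group means of 17.5% to 27.7% in hPSC, 50.8% to 73.6% in ectoderm, 48.1% to 61.4% in endoderm and 28.3% to 41.5% in mesoderm. The hPSC libraries varied widely for it, at 41.2%, 3.57% and 7.63% in chromatin and 0%, 28.6% and 40.4% in cytoplasm, so a single library decides these means.

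The Sprouty genes moved in different directions. SPRY4 (chr5:142310427-142326455, minus strand) was lowest in ectoderm. Its cytoplasm CPM was 78.5, 86.8 and 97.5 in hPSC and 7.29, 7.93 and 9.96 in ectoderm, a 10.8-fold fall (log2 -3.43, SE 0.14, edgeR adjusted p = 2.45e-11). The fall was -3.33 (SE 0.20) in nucleus, -3.84 (SE 0.11) in nucleoplasm and -3.94 (SE 0.18) in chromatin, the largest change of any member against hPSC in ectoderm. Endoderm cytoplasm held 54.4, 63.4 and 62.0 CPM and mesoderm cytoplasm 45.8, 40.4 and 39.2 CPM, in between and without overlap. Against hPSC cytoplasm these were -0.77 (SE 0.12, edgeR adjusted p = 7e-05) and -1.12 (SE 0.12, adjusted p = 1.24e-06). On TPM values the endoderm change was -0.42 (limma adjusted p = 0.0692). In nucleus, mesoderm was not called (-0.09, SE 0.18, adjusted p = 0.699; on TPM values 0.79, limma adjusted p = 0.00179), and the endoderm call (-0.46, adjusted p = 0.0363) ended when any of 5 single libraries was left out (adjusted p up to 0.116). In mesoderm chromatin SPRY4 was lower (-0.48, edgeR adjusted p = 0.0226), a call that ended without hPSC replicate 3 or mesoderm replicate 1 (adjusted p up to 0.0679). A single isoform, ENST00000434127, held 100.0% of the SPRY4 count in every group.

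SPRY2 (chr13:80335976-80340951, minus strand) was higher than in hPSC in all 3 lineages. Its cytoplasm CPM was 28.9, 29.7 and 33.6 in hPSC, 46.2, 38.1 and 39.6 in ectoderm, 60.0, 56.8 and 52.6 in endoderm, and 89.9, 89.5 and 77.5 in mesoderm. These 4 groups did not overlap. The log2 gain in cytoplasm was 0.37 (SE 0.10, edgeR adjusted p = 0.00324) in ectoderm, 0.66 (SE 0.10, adjusted p = 4.86e-05) in endoderm and 1.43 (SE 0.10, adjusted p = 9.81e-09) in mesoderm. It was called in the other fractions too, at 0.41 to 1.12. Endoderm nucleoplasm (0.45, SE 0.12, edgeR adjusted p = 0.00164) rests on the TMM factors, because mean CPM was 24.6 there and 25.1 in hPSC, and without the factors the change was -0.03 (adjusted p = 0.808). The endoderm chromatin change of 0.64 (adjusted p = 0.00243) was 0.38 without the factors (adjusted p = 0.0649). The ectoderm chromatin call (0.54, adjusted p = 0.00657) ended without hPSC chromatin replicate 1 (adjusted p = 0.0602).

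SPRY1 (chr4:123396795-123403760, plus strand) was the only Sprouty gene that was highest in ectoderm in every fraction. Cytoplasm CPM was 44.3, 34.0 and 35.9 there, 16.4, 15.6 and 22.4 in hPSC, 10.6, 12.8 and 12.3 in endoderm and 22.4, 19.1 and 15.0 in mesoderm. Ectoderm was 2.00-fold above hPSC (log2 1.00, SE 0.15, edgeR adjusted p = 2.24e-05), with 0.96 to 1.11 in the other fractions. Mesoderm overlapped hPSC in cytoplasm (0.00, SE 0.15, adjusted p = 0.996) and was lower in chromatin (-0.93, SE 0.18, adjusted p = 0.000606). Endoderm was lower than hPSC in all 4 fractions, by -0.83 (SE 0.16, edgeR adjusted p = 0.000401) in cytoplasm to -1.30 (SE 0.26, adjusted p = 0.000763) in nucleus. On TPM values the endoderm cytoplasm change was -0.04 (limma adjusted p = 0.902). The endoderm values also depended on unnamed transcripts. In hPSC cytoplasm a transcript with no Ensembl ID held 88.3% of the SPRY1 count, while in endoderm ENST00000622283 held 92.7%. Counted from transcripts with an Ensembl ID alone, SPRY1 was higher in endoderm cytoplasm (2.11, edgeR adjusted p = 0.021), the change from hPSC in mesoderm cytoplasm was 2.02 (adjusted p = 0.0211), and the ectoderm gain was 1.60 and no longer called (adjusted p = 0.052).

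**Figure D4:**
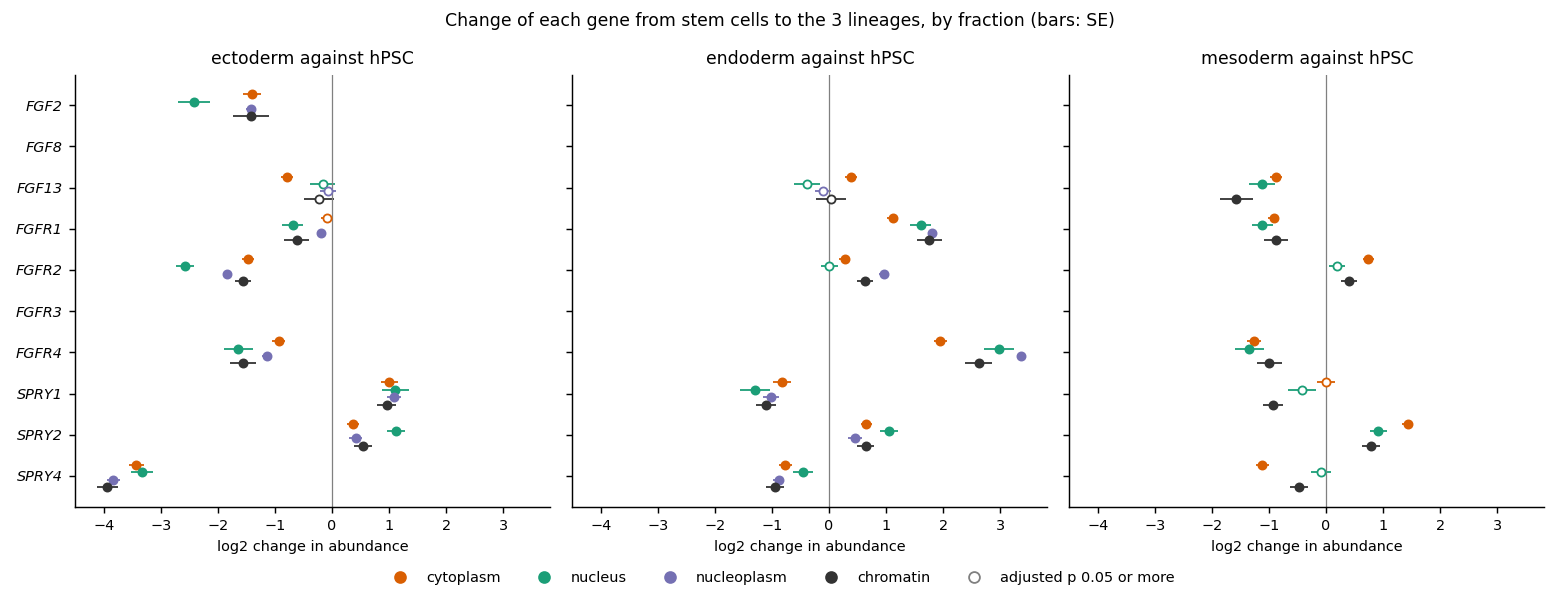
Log2 change of each gene in ectoderm, endoderm and mesoderm against hPSC (x axis), by fraction (colour), with SE bars. Filled points were called and open points were not. FGF8 and FGFR3 were not listed in hPSC and have no point, and FGF2 was listed in ectoderm and hPSC alone. The points farthest from 0 are SPRY4 in ectoderm chromatin (-3.94) and FGFR4 in endoderm nucleoplasm (3.37).

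Most genes of any kind differed between cell types, and the members were no exception. Ectoderm against hPSC had 6 of 7 members called in each fraction (2 higher, 4 lower), where 76.0% of all genes tested were called in cytoplasm, 57.6% in nucleus, 62.4% in chromatin and 79.5% in nucleoplasm. Endoderm had 7 members called in cytoplasm (5 higher), 5 in nucleus, 6 in nucleoplasm and 6 in chromatin, beside 59.6%, 57.0%, 77.1% and 61.9% of all genes. Mesoderm had 6 called in cytoplasm (4 lower), 4 in nucleus and 7 in chromatin, beside 68.0%, 54.0% and 54.3% of all genes. The median change of the 7 members in cytoplasm was -0.79 in ectoderm, 0.39 in endoderm and -0.88 in mesoderm, where the median of all genes was 0.04, -0.05 and 0.01. These comparisons share the hPSC libraries. The share of all called genes that was higher in endoderm was 46.02% in cytoplasm, 50.37% in nucleus, 50.29% in chromatin and 47.88% in nucleoplasm. Without TMM factors it was 66.88%, 30.13%, 37.81% and 27.38%, and on TPM values 77.29%, 31.23%, 36.34% and 37.26%. On TPM values it also went from 51.4% to 63.68% in mesoderm cytoplasm, from 48.27% to 88.38% in mesoderm nucleus, from 52.56% to 65.86% in mesoderm chromatin and from 49.92% to 29.5% in ectoderm nucleus. Of genes called between endoderm and mesoderm cytoplasm 47.23% were higher in endoderm, and 61.78% without TMM factors.

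Between fractions the receptors moved as a group. All 4 were lower in cytoplasm than in nucleus in each cell type where they were listed, in 15 of 15 tests, by 1.97-fold to 10.4-fold. The background for a gene called lower in cytoplasm was 26.7% of genes in ectoderm, 30.3% in hPSC, 31.3% in mesoderm and 35.5% in endoderm. For FGFR1 the libraries stood at 1044, 1213 and 1181 CPM in hPSC nucleus against 300, 311 and 362 in cytoplasm (log2 -1.90, SE 0.15, edgeR adjusted p = 1.07e-07). In endoderm FGFR4 stood at 1358, 970 and 963 CPM in nucleus against 206, 166 and 172 in cytoplasm (log2 -3.38, SE 0.25, adjusted p = 2.07e-08), the largest change of this kind. The smallest was FGFR2 in ectoderm, at 42.51, 29.02 and 41.69 CPM in nucleus and 23.5, 21.8 and 26.4 in cytoplasm (log2 -0.98, SE 0.12, edgeR adjusted p = 1.95e-05). Over the alternatives run, 194 of 194 receptor values were below 0 and 193 were called, the exception being FGFR2 in ectoderm on TPM values (-0.60, limma adjusted p = 0.0654). MT-CO1 was also higher in nucleus in hPSC, ectoderm and endoderm, and higher in cytoplasm in mesoderm, and its part in these results was not tested. In mesoderm the receptors were lower in cytoplasm by -1.64 (SE 0.19) for FGFR1, -1.33 (SE 0.13) for FGFR2, -1.70 (SE 0.28) for FGFR3 and -2.16 (SE 0.23) for FGFR4.

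Of the ligand family genes, FGF8 was lower in cytoplasm than in nucleus in ectoderm (log2 -0.78, SE 0.14, edgeR adjusted p = 0.000452). In endoderm it was too (-1.40, SE 0.54, adjusted p = 0.0305), from few counts and with overlapping libraries, and this call ended without cytoplasm replicate 1 or 2 or nucleus replicate 3 (adjusted p up to 0.11) or without TMM factors (adjusted p = 0.276). FGF13 was higher in cytoplasm in hPSC (0.75, SE 0.16, edgeR adjusted p = 0.00113), endoderm (1.50, SE 0.18, adjusted p = 3.9e-06) and mesoderm (1.05, SE 0.28, adjusted p = 0.00691), and was not called in ectoderm (-0.01, SE 0.14, adjusted p = 0.944). On TPM values FGF13 was at 0.41 in hPSC (limma adjusted p = 0.0599), 0.14 in mesoderm (adjusted p = 0.803) and 1.50 in ectoderm (adjusted p = 0.0198), and FGF8 in ectoderm at -0.46 (adjusted p = 0.0505). FGF2 was higher in cytoplasm in ectoderm (1.23, SE 0.26, adjusted p = 0.00166), at 80.7, 45.4 and 66.7 CPM against 31.3, 10.2 and 26.2, and not called in hPSC (0.27, SE 0.23, adjusted p = 0.299).

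Sprouty transcripts took no common side. SPRY2 was higher in cytoplasm in hPSC (0.57, SE 0.14, edgeR adjusted p = 0.00308) and mesoderm (1.14, SE 0.14, adjusted p = 3.93e-05). On TPM values these were 0.15 (limma adjusted p = 0.499) and 0.02 (adjusted p = 0.948). In mesoderm SPRY4 was lower in cytoplasm (-0.75, SE 0.15, adjusted p = 0.00115), at 45.8, 40.4 and 39.2 CPM against 71.78, 76.75 and 77.02. SPRY1 was not called, at -0.06 in hPSC (adjusted p = 0.748), -0.30 in ectoderm (adjusted p = 0.051), 0.38 in endoderm (adjusted p = 0.21) and 0.42 in mesoderm (adjusted p = 0.0796). The ectoderm SPRY2 call (-0.33, adjusted p = 0.0363) had a mean of 41.3 CPM in cytoplasm and 40.7 in nucleus, was 0.02 without TMM factors (adjusted p = 0.906), and ended without any 1 of 4 libraries (adjusted p up to 0.307). Across all members, 7 of 10 were called in ectoderm, 5 of 8 in hPSC, 6 of 9 in endoderm and 7 of 8 in mesoderm, beside 54.2%, 65.5%, 69.9% and 63.2% of all genes. The share of all called genes that was higher in cytoplasm was 50.7% in ectoderm and 49.14% in endoderm, and without TMM factors 76.05% and 71.54%. On TPM values it was 74.86% in ectoderm and 62.98% in endoderm, 34.04% in hPSC (53.67% by counts) and 10.34% in mesoderm (50.4% by counts).

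**Figure D5:**
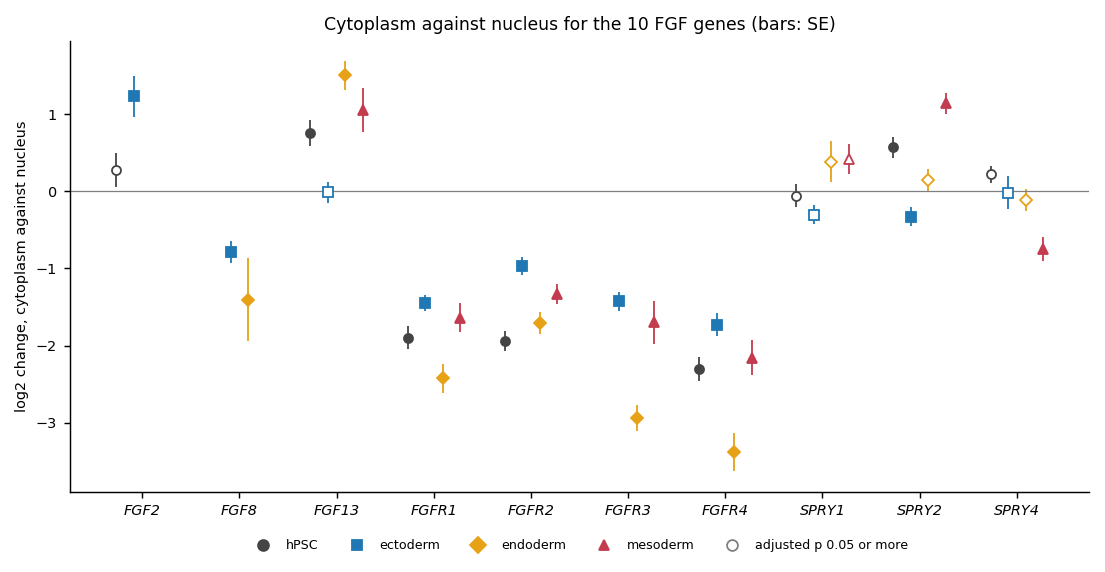
Log2 change of each gene in cytoplasm against nucleus (y axis), by cell type (colour and shape), with SE bars. Filled points were called and open points were not. All 15 receptor points lie below 0, between -3.38 and -0.98, and FGF13 lies above 0 in hPSC, endoderm and mesoderm.

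The size of the cytoplasm to nucleus difference itself differed from hPSC for 4 of 7 members in ectoderm, 2 in endoderm and 3 in mesoderm, in a test of the interaction that called 52.3%, 38.5% and 25.3% of all genes. The FGFR2 difference was less steep in ectoderm than in hPSC by 1.09 (SE 0.17, edgeR adjusted p = 2.62e-05). The FGFR4 difference was steeper in endoderm, by -1.05 (SE 0.29, adjusted p = 0.00826), and without TMM factors this was -0.37 (adjusted p = 0.124). Of all called genes 50.23% had a higher difference in ectoderm (82.17% on TPM values), 51.86% in endoderm (91.96% without TMM factors, 94.57% on TPM values) and 73.14% in mesoderm (48.79% and 5.288%).

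Few members were called between chromatin and nucleoplasm, and how many depended on the scaling. In all, 1 of 8 members was called in hPSC, 2 of 10 in ectoderm and 2 of 9 in endoderm, beside 30.6%, 44.4% and 53.7% of all genes. On TPM values 7, 8 and 6 were called, and without TMM factors 6, 4 and 5. FGFR3 was higher in chromatin than in nucleoplasm in ectoderm (94.8, 85.4 and 96.2 against 54.1, 41.8 and 52.0 CPM, log2 0.61, SE 0.12, edgeR adjusted p = 0.000953) and in endoderm (1601, 1533 and 1766 against 367, 366 and 393 CPM, log2 1.54, SE 0.16, adjusted p = 1.61e-06). The libraries of chromatin and nucleoplasm did not overlap in either cell type. FGFR1 was higher in hPSC chromatin (0.56, SE 0.14, adjusted p = 0.0106), a call that ended without nucleoplasm replicate 3 (0.50, adjusted p = 0.0623). The calls of FGF13 in ectoderm (-0.40, adjusted p = 0.0296) and FGFR4 in endoderm (-0.57, adjusted p = 0.0488) ended when almost any single library was left out, with adjusted p up to 0.242 and 0.127, and FGFR4 had mean CPM of 638 in chromatin and 633 in nucleoplasm. Of all genes called in hPSC, ectoderm and endoderm, 56.32%, 41.84% and 42.75% were higher in chromatin, and 86.46%, 70.62% and 73.69% were without TMM factors and 96.94%, 96.86% and 76.07% on TPM values.

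The tables hold 152 member isoforms, 67 with an Ensembl transcript ID. Of receptor isoforms tested in cytoplasm against nucleus, 5 of 16 were called in ectoderm, 14 of 29 in hPSC, 24 of 36 in endoderm and 11 of 21 in mesoderm, each of them lower in cytoplasm. The mesoderm tests include an FGFR1 transcript (MES.7446.2) at 0 CPM in both cytoplasm and nucleus. None of 5 FGFR2 isoforms tested was called in ectoderm, where the gene sum was. All member isoforms together had 7 of 30, 16 of 38, 29 of 46 and 14 of 27 called in the same order, beside 13.7%, 39.7%, 42.1% and 32.0% of all transcripts. Of all called transcripts 51.51% were higher in cytoplasm in ectoderm (75.0% without TMM factors, 68.32% on TPM values), 49.53% in hPSC (29.39% on TPM values), 45.75% in endoderm (60.58% without the factors) and 47.6% in mesoderm (32.0% and 8.434%). Among isoforms that held at least 20% of their gene's count in a group, the steepest was an FGFR3 transcript with no Ensembl ID in endoderm (END.3333.2), at 6.48 CPM in cytoplasm and 171 CPM in nucleus (log2 -5.20, SE 0.20, edgeR adjusted p = 1.95e-07). It held 3.2% of the FGFR3 count in cytoplasm, 5.3% in nucleoplasm, 17.8% in nucleus and 30.01% in chromatin. The leading FGFR3 transcript there (END.3333.1) went from 186 to 613 CPM (log2 -2.22, SE 0.18, adjusted p = 5.21e-06). In mesoderm, too, an FGFR3 transcript with no ID (MES.3936.4) held 17.1% in cytoplasm and 50.1% in chromatin, and ENST00000440486 held 65.6% and 29.2%. The leading FGFR1 isoform in cytoplasm was ENST00000397091 in hPSC (49.1%) and mesoderm (34.9%) and ENST00000683815 in ectoderm (51.9%) and endoderm (39.6%). Because the assemblies differ, isoform shares of different cell types were set side by side without a test, apart from the FGFR2 IIIb share.

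Other genes of the pathway came from 5 lists with 78 genes. The lists were chosen with earlier results of these data known, so their counts are a description and not an independent test. In the list of co-receptors and ligand carriers, heparan sulfate proteins and others that hold FGFs at the cell surface, every gene tested was lower in cytoplasm than in nucleus: 14 of 14 in ectoderm, 12 of 12 in hPSC, 11 of 11 in endoderm and 13 of 13 in mesoderm, beside 26.7%, 30.3%, 35.5% and 31.3% of all genes. Their median log2 change was -1.16, -2.49, -2.99 and -1.53. The list of 19 receptor adaptors and RAS-ERK chain genes had more genes higher than lower in cytoplasm in hPSC (11 against 2 of 18 tested), endoderm (10 against 2 of 17) and mesoderm (10 against 1 of 19). In ectoderm the counts were nearly even, at 7 higher against 6 lower of 19. Of all genes 27.5% were called higher in cytoplasm in ectoderm, 31.8% in mesoderm, 34.3% in endoderm and 35.2% in hPSC.

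Against hPSC in cytoplasm, co-receptors and ligand carriers were mostly higher, with 8 of 9 tested higher in ectoderm, 7 in endoderm and 7 in mesoderm, 1 lower in each, and median changes of 1.29, 1.00 and 1.27. Of all genes, 39.0% were called higher and 37.0% lower in ectoderm, 27.4% and 32.2% in endoderm, and 34.9% and 33.0% in mesoderm, and the counts of the lists that follow stand beside these shares. GPC3, a glypican, rose to 457 CPM in ectoderm (log2 4.21, edgeR adjusted p = 3.32e-12) and to 96.3 CPM in mesoderm (1.98, adjusted p = 1.95e-09). GPC6, another glypican, rose in all 3, by 3.55, 2.01 and 2.74 on the log2 scale. Of the 3 other FGF ligand genes that could be tested, 3 were lower in ectoderm, 1 was higher and 1 lower in endoderm, and 1 was higher and 2 lower in mesoderm. Among them FGF11, an intracellular relative of FGF13, was lower in each lineage, by -1.51, -1.65 and -2.04. Among ERK target transcription factors, 4 of 9 were lower and 3 higher in ectoderm, 6 and 2 in endoderm, and 6 and 3 in mesoderm. FOSL1, an AP-1 subunit, was lower in each, by -0.76 in mesoderm, -1.68 in endoderm and -4.40 in ectoderm. MYC was lower in ectoderm (-2.45) and endoderm (-1.66), and ETV4, an ETS factor induced by FGF, was lower in ectoderm (-2.36) and mesoderm (-1.41).

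The other feedback genes showed no single direction either: 7 of 9 tested were higher and 2 lower in ectoderm (39.0% and 37.0% of all genes), 6 and 2 in endoderm (27.4% and 32.2%), and 4 and 3 in mesoderm (34.9% and 33.0%). DUSP4, a phosphatase that acts on ERK, rose to 71.6 CPM in ectoderm (2.06, edgeR adjusted p = 1.05e-08) and 54.5 CPM in endoderm (1.50, adjusted p = 8.6e-07) and fell to 4.07 CPM in mesoderm (-2.07, adjusted p = 9.49e-08). IL17RD, a membrane inhibitor of FGF signals, reached 165 CPM in ectoderm (2.93, adjusted p = 1.95e-08). NF1, a RAS GTPase activator, was higher in ectoderm (4.39), endoderm (2.89) and mesoderm (1.13). For the adaptors and RAS-ERK chain the counts were 9 higher and 4 lower of 17 in ectoderm, 6 and 2 in endoderm, and 8 and 3 in mesoderm, with medians of 0.31, 0.12 and 0.27. GAB1, a docking protein, was higher in all 3, by 1.70, 1.26 and 2.51.

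The genes whose pattern over the 16 groups was most like that of a member were found by the root mean square (RMS) difference of centred log2(CPM + 1) group means, among 10047 genes listed in all 4 tables at a mean of 5 CPM or more. BCL11A was nearest to SPRY4, at 0.29 where the median gene was 1.53 away, followed by CDCA7 at 0.41. VPS37C (0.20) and PACS1 (0.22) were nearest to SPRY2, and RSBN1 (0.24) and TCEANC2 (0.27) to SPRY1. For the receptors the nearest were RHBDF2 (0.31) and CLDN23 (0.40) for FGFR2, SPTB (0.38) and ICOSLG (0.42) for FGFR1, and HLA-B (0.55) and AQP3 (0.57) for FGFR4, whose own pattern had an RMS of 1.67. CCDC97 (0.30) and SERPINB1 (0.30) were nearest to FGF13. Levels of other genes that overlap members on the opposite strand were low beside them: LETM2, which overlaps FGFR1, had group means of 0.187 to 5.57 CPM, SPRY4-AS1 0.647 to 2.40 CPM and FGF13-AS1 1.63 to 4.32 CPM, where listed. In these bulk samples fewer cells of a type and less RNA per cell cannot be told apart.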

How the data were processed

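RNA of 4 fractions from 4 cell types was sequenced in 46 libraries. The deposited tables hold whole-number counts per transcript, made by the authors with STAR and RSEM on hg38, per the submitters' processing notes, which give no versions; whether strand was used in counting is not given in the sources used here. Deposited tables of TPM for nearly the same transcripts were used for levels between genes. One count table column of no labelled sample (1 in all) was not used. The 10 members and the pathway and marker lists were chosen with earlier results of these data known.

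Transcript counts were summed per Ensembl gene. Tests used edgeR 4.0.16 (R 4.3.3) with quasi-likelihood fits, TMM factors, a minimum count of 10 in its expression filter and Benjamini-Hochberg adjustment over all genes tested, called under 0.05. Cell types were compared within a fraction over genes listed in all 4 tables, and fractions within a cell type over that cell type's table. Transcripts without an Ensembl gene held 2.638% to 4.069% of counts and entered gene tests through library totals alone. Replicates were numbered per the labels. The mesoderm nucleoplasm column carries another replicate number than the only such label, and was matched to it by cell type and fraction. The lowest correlation between the deviations of same-numbered libraries lay between -0.55 and 0.0778 over the comparisons. The highest lay between -0.222 and 0.501, and for libraries of different numbers between 0.0134 and 0.512. In hPSC cytoplasm and nucleus all same-numbered correlations were above 0 (0.0778 to 0.258), and those of different numbers reached 0.241. In ectoderm chromatin and nucleoplasm all same-numbered correlations (0.033 to 0.198) were above all those of different numbers (-0.163 to 0.0134). No label ties the numbers to a shared culture or day, so no pairing was assumed. All 45 pairs of replicates differed by more than sampling noise (chi-square per degree of freedom 4.181 or more). Alternatives were RLE size factors, no TMM factors, no filter, DESeq2 1.42.0, limma 3.58.1 on log2(TPM + 1), each library left out, a replicate block, transcripts with an Ensembl ID alone, and the genes of the 2 tables compared. The 3 comparisons between lineages were added after the data were seen. The scripts were tested on simulated data. Named genes were the 10 members and, of each pathway list, at most the 3 called genes with the largest change in cytoplasm at a mean of 5 CPM or more. Isoforms were named from 20% of the gene's count in a group with a gene level of 5 CPM or more. Splice forms and positions came from GENCODE release 29 on GRCh38. The sequence of 1 FGFR2 exon is not reported here.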

Additional observations from a re-analysis of the deposited data

Results flagged for a closer look

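The cytoplasm to nucleus difference itself differed from that in hPSC for 9 member results, each by an edgeR interaction test with adjusted p under 0.05. In ectoderm this was so for FGFR2 by 1.09 (-0.98 in ectoderm and -1.94 in hPSC, adjusted p = 2.62e-05), FGFR1 by 0.57 (-1.45 and -1.90, adjusted p = 0.0301), SPRY2 by -0.77 (-0.33 and 0.57, adjusted p = 0.000808) and FGF13 by -0.64 (-0.01 and 0.75, adjusted p = 0.0213). The FGFR1 call ended when any of 7 single libraries was left out (adjusted p up to 0.0696), and the FGF13 call when any of 4 was (adjusted p up to 0.104). On TPM values the FGF13 difference turned to 1.09 (limma adjusted p = 0.0275) and the SPRY2 difference was -0.17 (adjusted p = 0.604), and without TMM factors FGF13 was at -0.50 (edgeR adjusted p = 0.17).

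In endoderm the FGF13 difference was larger by 0.79 (1.50 and 0.75, adjusted p = 0.00957) and the FGFR4 difference steeper by -1.05 (-3.38 and -2.30, adjusted p = 0.00826). The FGFR4 call ended without TMM factors (-0.37, adjusted p = 0.124) and on TPM values (-0.35, limma adjusted p = 0.289). In mesoderm FGFR2 was less steep by 0.69 (-1.33 and -1.94, adjusted p = 0.00457), SPRY2 was further toward the cytoplasm by 0.65 (1.14 and 0.57, adjusted p = 0.0085), and SPRY4 moved toward the nucleus by -0.89 (-0.75 and 0.22, adjusted p = 0.00503). On TPM values the mesoderm FGFR2 and SPRY2 differences turned to -0.17 (limma adjusted p = 0.659) and -0.135 (adjusted p = 0.673). Without TMM factors they were 0.44 (edgeR adjusted p = 0.169) and 0.40 (adjusted p = 0.122), so 1 of 3 mesoderm calls was left under each. The tests call 52.3%, 38.5% and 25.3% of all genes in ectoderm, endoderm and mesoderm.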

How the results depend on the processing

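Of 3247 single member results under alternatives, 1933 were called both ways in 1 direction, 144 lost the call, 93 gained it and 25 turned direction with a call in at least 1 fit. The other 1052 were called in neither fit, and 125 of them had another sign. The cause was not tested. Leaving out TMM factors moved the median of all genes by -0.48 to 0.71 on the log2 scale, and TPM values by -0.78 to 0.79, so changes are relative to these medians. With transcripts that have an Ensembl ID alone, the endoderm changes against hPSC turned for FGF13 in cytoplasm (-0.67) and chromatin (-2.003), and for SPRY1 in cytoplasm (2.11), nucleus (0.65), nucleoplasm (1.32) and chromatin (1.47), as did FGFR1 in ectoderm nucleoplasm (0.0436). Without TMM factors those that turned were SPRY2 in endoderm nucleoplasm against hPSC (-0.0318), cytoplasm against nucleus for SPRY2 in ectoderm (0.0190) and SPRY4 in endoderm (0.60), and chromatin against nucleoplasm in endoderm for FGFR4 (0.0114) and SPRY4 (0.55). On TPM values these were, in mesoderm nucleus against hPSC, FGF13 (0.10) and SPRY4 (0.79), and in cytoplasm against nucleus FGF13 in ectoderm (1.50) and its isoform in mesoderm (-0.10). In chromatin against nucleoplasm they were FGF13 in hPSC (0.46) and endoderm (0.80), FGFR1 (0.68) and SPRY4 (0.48) in ectoderm, and FGFR4 (0.0911) and SPRY4 (0.59) in endoderm, and among interactions FGF13 in ectoderm (1.09), FGFR2 (-0.17) and SPRY2 (-0.135) in mesoderm.

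Counts of called members moved by over 1.5 times as follows. Mesoderm chromatin against hPSC went from 7 to 4 on TPM values and 4 with Ensembl IDs alone, and cytoplasm against nucleus in hPSC from 5 to 3 on TPM values. Chromatin against nucleoplasm went in hPSC from 1 to 7 on TPM values and 6 without TMM factors, with 0 to 2 when single libraries were left out. In ectoderm it went from 2 to 8 and 4, with 1 to 2 when single libraries were left out, and in endoderm from 2 to 6 and 5, and 4 by DESeq2, with 1 when any single library was left out. The interaction in endoderm went from 2 to 4 by DESeq2 and 1 with Ensembl IDs alone, with 2 to 4 when libraries were left out, in mesoderm from 3 to 1 on TPM values and 1 without TMM factors, and in ectoderm it lay between 2 and 5, beside 4, when libraries were left out. Ectoderm isoforms went from 7 to 14 by DESeq2 and 4 on TPM values, with 4 to 7 when libraries were left out, and mesoderm isoforms from 14 to between 9 and 10. With the replicate block, mesoderm isoforms called went from 14 to 9, and 5 single results lost the call, among them SPRY4 in endoderm nucleus against hPSC and SPRY2 in ectoderm cytoplasm against nucleus. Few libraries a group, 1 cell line and separate assemblies limit these results, and FGF8 in endoderm rests on 3 to 38 counts per library.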
